A study of Homo sapiens with 6 samples.

Results

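The genes described here make, carry, trim or load peptides for MHC class I molecules, form part of these molecules or, in NLRC5, regulate such genes. They are B2M, NLRC5, TAP1, TAP2, TAPBP, PSMB8, PSMB9, PSMB10, ERAP1 and ERAP2. The list was set by symbol, and every probe set that the PrimeView platform annotation assigns to 1 of these symbols alone was taken. This gave 38 probe sets of 49393, and all 10 genes of the 18244 measured. Their RNA was measured in L428, an established cell line from human Hodgkin lymphoma. The study compared 3 arrays of L428 cells that received a single siRNA against BATF3 with 3 arrays of L428 cells that received a negative control siRNA. Both groups were nucleofected, which is delivery by electric pulse, with 3 µg of siRNA and cultured for 48 hours, and no untreated cells were part of the comparison. BATF3 belongs to the AP-1 family of transcription factors and binds DNA in pairs with JUN proteins; the comparison asks what reducing it does to other transcripts. Nothing in the labels places the replicates in separate cultures, and p-values therefore cover only the spread among these samples, which may be technical.

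MHC class I molecules show peptides from inside the cell to cytotoxic T cells. Proteasomes cut cytosolic proteins into peptides, the TAP transporter carries these into the endoplasmic reticulum, aminopeptidases trim them there, and tapasin helps to load them onto a heavy chain paired with beta-2-microglobulin. Interferon-gamma is known to raise most of these genes, among them the 3 subunits that turn a constitutive proteasome into an immunoproteasome. Loss of class I display is known from many Hodgkin lymphomas.

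The series carries a check of the siRNA and a few facts about the arrays. BATF3, the targeted gene, read 10.87, 10.76 and 10.69 after BATF3 siRNA and 11.89, 12.09 and 11.94 after control siRNA (log2). BATF3 thus fell by 1.20 in log2 units (SE 0.095; limma adjusted p = 0.00673). The call was lost without control siRNA replicate 2 (limma adjusted p = 0.0644) or BATF3 siRNA replicate 3 (0.0664). All 10 Hodgkin lymphoma genes that were looked up were brighter than every background probe set in all 6 arrays. Of 7 measured B cell identity genes, which Hodgkin lines are known to have lost in large part, 2 did so. None of 7 T and NK cell genes, 1 of 8 myeloid genes and none of 8 fibroblast and epithelial genes did so. Background probes match no transcript, and those with 20 to 25 G or C bases averaged 5.92 and 5.98 in BATF3 siRNA replicates 2 and 3, below the other 4 arrays (6.46 to 6.49). A block for array background sets BATF3 siRNA replicates 2 and 3 apart, with no control array among them. The change in that fit is therefore BATF3 siRNA replicate 1 against the 3 controls, and for BATF3 it was −1.10.

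The stretches of DNA before these genes are shown because transcription factors of the AP-1, IRF, STAT and NF-kappaB families are known to bind promoters of such genes, and BATF3 is known to act at AP-1 sites and at joint sites with IRF factors. RefSeq windows (build GRCh38.p14) were available for 9 of the 10 genes, 13 windows in all. Only the 250 bases before each start are used, written 5′ to 3′ on the gene's own strand. The 6 printed here are the windows at the outermost start of B2M (chr15:44711267-44711516, plus strand), TAP1 (chr6:32853705-32853954, minus strand), PSMB9 (chr6:32853942-32854191, plus strand), TAP2 (chr6:32838740-32838989, minus strand), TAPBP (chr6:33314079-33314328, minus strand) and PSMB10 (chr16:67936851-67937100, minus strand). PSMB9 holds no marked match and is shown because it starts across from TAP1, with 487 bases between the 2 starts, and is read in the opposite direction. In the other windows capitals mark matches on either strand to GAAANNGAA, the core of an interferon response element that IRF factors bind, or to GGACTTTCC, an NF-kappaB site.
B2M: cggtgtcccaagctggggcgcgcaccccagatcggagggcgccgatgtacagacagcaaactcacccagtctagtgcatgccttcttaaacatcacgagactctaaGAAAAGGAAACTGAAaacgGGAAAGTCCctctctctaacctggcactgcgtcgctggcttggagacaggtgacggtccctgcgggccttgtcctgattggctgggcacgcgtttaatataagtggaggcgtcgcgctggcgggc
TAP1: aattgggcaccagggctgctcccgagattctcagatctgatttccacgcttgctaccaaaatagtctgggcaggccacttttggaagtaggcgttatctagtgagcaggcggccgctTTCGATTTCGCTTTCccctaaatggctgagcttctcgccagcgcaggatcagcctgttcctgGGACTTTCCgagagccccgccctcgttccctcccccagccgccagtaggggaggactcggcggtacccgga
PSMB9: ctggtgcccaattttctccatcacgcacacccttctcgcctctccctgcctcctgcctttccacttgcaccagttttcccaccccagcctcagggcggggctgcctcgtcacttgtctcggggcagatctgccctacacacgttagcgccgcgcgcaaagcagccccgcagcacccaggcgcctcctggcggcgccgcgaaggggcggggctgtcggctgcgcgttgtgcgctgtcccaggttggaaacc
TAP2: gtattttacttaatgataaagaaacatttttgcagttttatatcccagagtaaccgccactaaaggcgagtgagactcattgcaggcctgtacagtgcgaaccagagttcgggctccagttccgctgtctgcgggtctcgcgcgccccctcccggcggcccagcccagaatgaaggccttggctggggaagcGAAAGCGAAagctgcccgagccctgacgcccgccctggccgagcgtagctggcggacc
TAPBP: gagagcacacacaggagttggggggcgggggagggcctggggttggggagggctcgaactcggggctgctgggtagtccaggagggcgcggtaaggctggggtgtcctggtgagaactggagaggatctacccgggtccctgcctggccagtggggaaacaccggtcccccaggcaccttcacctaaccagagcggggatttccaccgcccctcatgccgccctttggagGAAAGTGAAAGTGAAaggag
PSMB10: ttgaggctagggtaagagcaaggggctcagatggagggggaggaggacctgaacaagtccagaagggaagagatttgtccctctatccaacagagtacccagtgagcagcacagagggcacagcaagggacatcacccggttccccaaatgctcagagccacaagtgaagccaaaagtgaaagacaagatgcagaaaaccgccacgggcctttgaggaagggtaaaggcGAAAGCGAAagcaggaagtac

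The letters GAAANNGAA were found in 6 of the 13 windows, those of B2M, TAP1, TAP2, TAPBP and PSMB10 and the inner start of ERAP2. Among all 35116 windows from RefSeq the share was 6.88%. In B2M, TAP1 and TAPBP they occurred as a pair of matches that overlap by 3 bases. The NF-kappaB letters GGACTTTCC were in the windows of B2M and TAP1, against 0.333% of all windows. The letters TTCNNNGAA, of a STAT site, were in the inner windows of TAP1 and PSMB8, against 6.57% of all windows. CCAAT, which NF-Y binds, was in a window of B2M, TAP1, PSMB9 and ERAP1, against 32.0% of all windows. The match in TAP1 and that in PSMB9 are the same bases, within the 13 that both windows hold. The AP-1 letters TGANTCA were in 0 of the 13 windows and in 6.57% of all windows. TGACGTCA, the cyclic AMP response element, was in 0 of the 13 and in 1.65% of all windows. Both strands were searched, and a match is a run of letters in this window, not a measured binding site.

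None of the 10 genes passed the test between BATF3 siRNA and control siRNA. The test was limma across all 18244 genes with Benjamini-Hochberg adjustment and a threshold of 0.05 on the adjusted p. The count was 0 of 10 members, against 0.0164% of all genes, and the smallest adjusted p among the members was 0.848. At an unadjusted p under 0.05 there were also 0 of 10, against 7.15% of all genes. The 2 groups of arrays overlapped for all 10 genes, whereas they did not overlap for 12.1% of all genes. In bulk RNA a change in some cells and a smaller change in all cells cannot be told apart, nor can fewer cells of a kind and less RNA per cell. Changes ran from −0.047 to 0.14 on the log2 scale, with 5 positive and 5 negative, a median of 0.0092 and a median of −0.0027 over all genes. For 9 of the 10 genes the change was smaller than the pooled SD between replicates, and TAP1 was the exception (0.14 against 0.134).

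**Figure D1:**
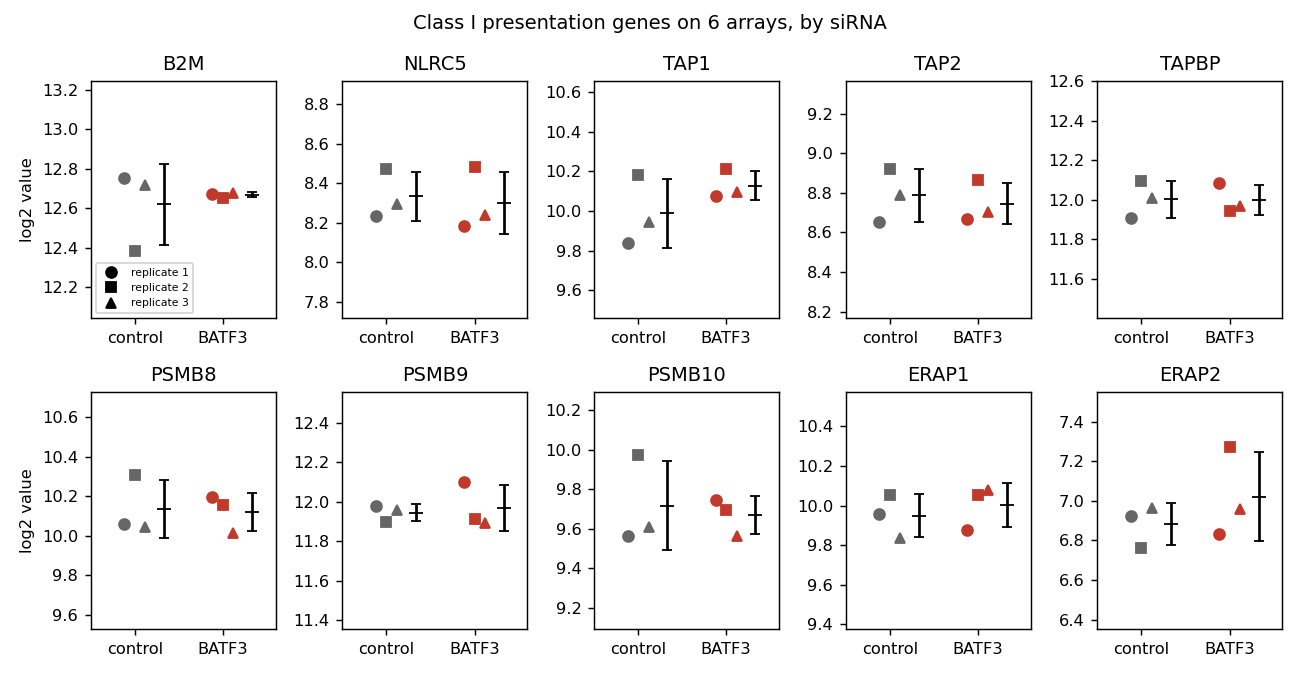
Log2 value (vertical axis, each panel 1.2 units high) of each gene on the 3 control siRNA arrays (grey) and the 3 BATF3 siRNA arrays (red), with the mean and SD of each group in black; symbols mark replicate numbers. The groups overlap in all 10 panels, and the red points of B2M lie close together while control replicate 2 lies below them.

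The intervals show how precise these changes are. Over the 9 genes brighter than the background on all 6 arrays, the 95% intervals ran at their lowest to −0.32, for PSMB10, and at their highest to 0.38, for TAP1. These bounds are 0.800 and 1.30 times the control level and hold for the brightest probe set of each gene. In the fit across all probe sets, some other probe sets above the background on all 6 arrays had wider intervals. Among them the highest upper bound was 0.50, for a B2M probe set, and the lowest lower bound −0.43, for a TAPBP probe set. The interval of ERAP2 reached 0.42, but no control array read it above the background, so this is no bound on its RNA. The changes of individual members and of BATF3 are drawn in the plot of changes with their intervals.

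**Figure D2:**
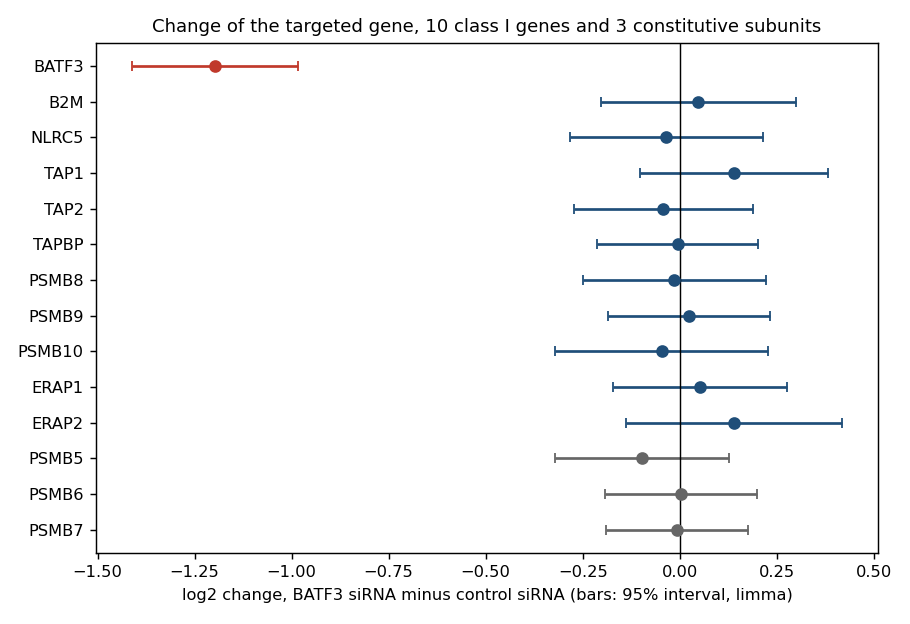
Log2 change, BATF3 siRNA minus control siRNA (horizontal axis), with 95% confidence intervals from limma, for BATF3 (red), the 10 class I genes (blue) and the 3 constitutive proteasome subunits PSMB5, PSMB6 and PSMB7 (grey), n = 3 arrays per group. The interval of BATF3 lies wholly below 0, and the intervals of the other 13 genes include 0.

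B2M encodes beta-2-microglobulin, the light chain that every class I molecule needs to reach the surface. It read 12.67, 12.65 and 12.68 after BATF3 siRNA and 12.76, 12.39 and 12.72 after control siRNA. The BATF3 siRNA arrays lay between the control arrays, and control replicate 2 was the lowest of the 6. The change was 0.048 (SE 0.11; limma adjusted p = 0.955), with an interval of −0.20 to 0.30. All 8 B2M probe sets had positive changes, from 0.018 to 0.18, but 2 of them held the same values on every array. In 6 of the 8 control replicate 2 was the lowest array, and without that array the change was −0.069.

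NLRC5 encodes a transactivator that is recruited to class I promoters and is known to raise the heavy chains, B2M, TAP1 and PSMB9. Its values were 8.18, 8.48 and 8.24 after BATF3 siRNA and 8.23, 8.47 and 8.30 after control siRNA. Replicate 2 was the highest in both groups, and the groups covered the same range. The change was −0.035 (SE 0.11; limma adjusted p = 0.970). Its other probe set, dimmer than the brightest background probe set on all 6 arrays, had a change of −0.071.

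TAP1 and TAP2 form the transporter that moves peptides into the endoplasmic reticulum. They lie side by side with PSMB8 and PSMB9 in the MHC region of chromosome 6, in the order TAP2, PSMB8, TAP1, PSMB9. TAP1 read 10.08, 10.21 and 10.10 after BATF3 siRNA and 9.84, 10.18 and 9.95 after control siRNA. All 3 BATF3 siRNA arrays lay above control replicates 1 and 3, and control replicate 2 lay among them. The change was 0.14 (SE 0.11; limma adjusted p = 0.848), or 1.10 times the control level with an interval of 0.931 to 1.30. Its other probe set went the other way, at −0.047, and both exceeded the background in every array. TAP1 kept a positive change in all 16 alternative fits, between 0.046 and 0.24, at 0.24 without control siRNA replicate 2 and 0.065 without control siRNA replicate 1, and its adjusted p was 0.266 or more in each.

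TAP2 read 8.67, 8.86 and 8.70 after BATF3 siRNA and 8.65, 8.92 and 8.79 after control siRNA. Here too replicate 2 was the highest of each group. The difference between the groups was −0.042 (SE 0.10; limma adjusted p = 0.957). The 4 TAP2 probe sets ran from −0.042 to 0.14 with 2 positive and 2 negative. The probe set at 0.14 stayed below the highest background on each array. A further probe set that the annotation assigns to both HLA-DOB and TAP2 had a change of 0.065 and also lay under that background.

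TAPBP encodes tapasin, which holds class I molecules next to the transporter until a peptide is bound. It read 12.08, 11.94 and 11.97 after BATF3 siRNA and 11.91, 12.09 and 12.01 after control siRNA, so that each group reached as high as the other. The change was −0.0055 (SE 0.092; limma adjusted p = 0.994). Of its 5 probe sets 4 had negative changes, down to −0.17, and all 5 exceeded the background in every array. The probe set at −0.17 read 10.95, 10.57 and 10.60 after BATF3 siRNA and 10.85, 10.93 and 10.84 after control siRNA. Its 2 lowest arrays were BATF3 siRNA replicates 2 and 3, the arrays with the lower G and C rich background, whose part in this was not tested.

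PSMB8, PSMB9 and PSMB10 encode the catalytic subunits of the immunoproteasome, which replace the constitutive subunits PSMB5, PSMB6 and PSMB7. PSMB8 read 10.20, 10.16 and 10.01 after BATF3 siRNA and 10.06, 10.31 and 10.04 after control siRNA, a change of −0.014 (SE 0.10; limma adjusted p = 0.989). PSMB9 read 12.10, 11.91 and 11.89 against 11.98, 11.90 and 11.96, a change of 0.024 (SE 0.093; adjusted p = 0.974). PSMB10 read 9.75, 9.70 and 9.57 against 9.57, 9.97 and 9.61, a change of −0.047 (SE 0.12; adjusted p = 0.961). In each of the 3 genes the groups overlapped, with PSMB9 highest in BATF3 siRNA replicate 1 and the other two highest in control replicate 2. All 3 PSMB10 probe sets had negative changes, from −0.057 to −0.020.

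The constitutive counterparts were close to the control level as well. PSMB5 was at −0.098 (SE 0.10; limma adjusted p = 0.890), PSMB6 at 0.0038 (SE 0.087; adjusted p = 0.996) and PSMB7 at −0.0079 (SE 0.081; adjusted p = 0.992). Within each array the log2 difference between an inducible subunit and its counterpart was taken, which removes an array's common scale. The difference of PSMB8 from PSMB5 changed by 0.084 between the groups, with SDs of 0.083 after BATF3 siRNA and 0.067 after control siRNA (n = 3 each). That of PSMB9 from PSMB6 changed by 0.020 (SDs 0.130 and 0.127), and that of PSMB10 from PSMB7 by −0.039 (SDs 0.075 and 0.249). Two-sided exact permutation tests over the arrays gave p = 0.4, 1 and 1, where 3 arrays against 3 cannot give a p below 0.1. With the most variable probe set of each gene the PSMB8 difference was 0.434 and the PSMB9 difference −0.145. For PSMB8 that probe set is the dim one described next. For PSMB9 it also lay under the highest background on all 6 arrays. With array background as a block, only BATF3 siRNA replicate 1 is set against the 3 controls. The PSMB8 and PSMB9 differences were then 0.039 and 0.170, and that of PSMB10 was 0.025. Leaving out 1 array gave 0.035 to 0.110 for PSMB8, −0.055 to 0.065 for PSMB9 and −0.119 to 0.052 for PSMB10, so that the last 2 had no settled sign.

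Of the 38 probe sets 1 of PSMB8 stood farthest from 0. It read 5.08, 4.98 and 4.88 after BATF3 siRNA and 4.74, 4.76 and 4.43 after control siRNA. The lowest BATF3 siRNA array exceeded the highest control array, at a change of 0.34 (SE 0.11), but the probe set did not pass in the test across all probe sets (limma adjusted p = 0.615). Its values stayed below the highest background probe set on each array. Another PSMB8 probe set, which the annotation ties to the same transcript record, lay above that background and changed by 0.034. In RefSeq the antisense gene PSMB8-AS1 overlaps PSMB8 and TAP1, and whether these probes tell the strands apart was not examined.

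Across the 38 probe sets 0 passed in limma, against 0.0101% of all probe sets. At an unadjusted p under 0.05 there was 1, the PSMB8 probe set above, against 7.16% of all probe sets. The same probe set was also the only 1 whose BATF3 siRNA arrays all lay above the controls, against 6.38% of all probe sets, and 0 lay wholly below, against 5.86%; in either direction 12.2% of all probe sets had groups that did not overlap. Changes were positive for 23 and negative for 15, with a median of 0.027 against −0.0036 over all probe sets. In every array 28 of the 38 lay above the highest background probe set, and 9 lay under it in all 6.

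**Figure D3:**
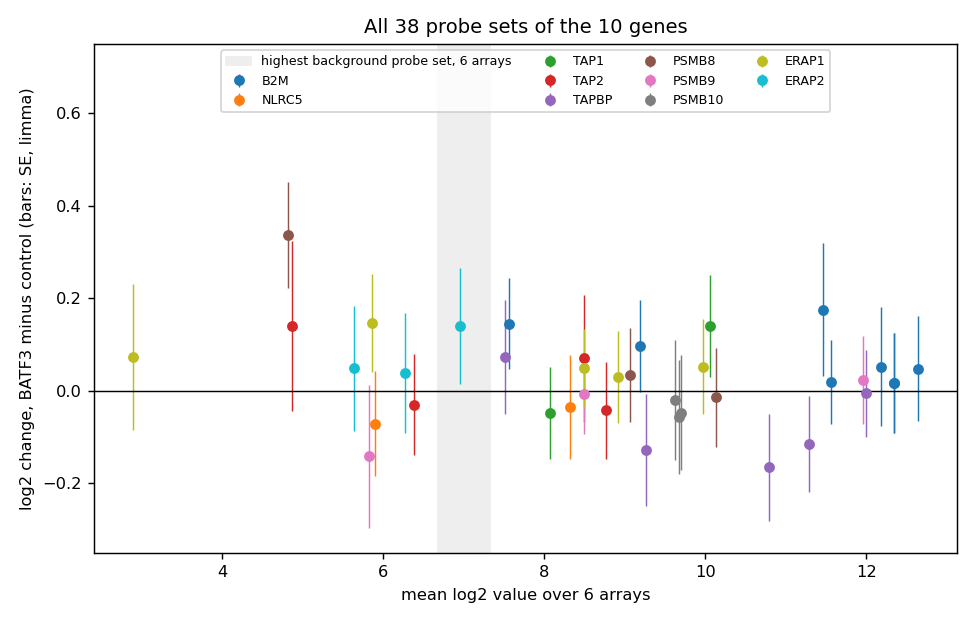
Log2 change (vertical axis, bars are the SE from limma) against mean log2 value over the 6 arrays (horizontal axis) for the 38 probe sets, coloured by gene; the grey band is the range over arrays of the highest background probe set, 6.68 to 7.32. The point farthest from 0, the PSMB8 probe set at 0.34, lies to the left of the band, and points to its right lie between −0.17 and 0.18.

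ERAP1 and ERAP2 encode the aminopeptidases that trim peptides to fit the class I groove. ERAP1 read 9.87, 10.05 and 10.08 after BATF3 siRNA and 9.96, 10.06 and 9.83 after control siRNA, a change of 0.052 (SE 0.10; limma adjusted p = 0.948). Its highest array and its lowest array stood in different groups, but each group held values near both ends. All 5 ERAP1 probe sets had positive changes, from 0.030 to 0.15. The 2 largest, 0.15 and 0.073, came from probe sets under the highest background on all 6 arrays. The other 3 lay above it on every array and reached 0.052. ERAP2 read 6.83, 7.27 and 6.96 after BATF3 siRNA and 6.92, 6.76 and 6.96 after control siRNA, a change of 0.14 (SE 0.12; adjusted p = 0.866). It was above the highest background probe set in 2 arrays, BATF3 siRNA replicates 2 and 3, which are those with the lower background, so the size of this change is uncertain. Without BATF3 siRNA replicate 2 the ERAP2 change was 0.015, and without BATF3 siRNA replicate 1 it was 0.23. Without control siRNA replicate 2 it was 0.079. With array background as a block, which leaves BATF3 siRNA replicate 1 against the controls, the ERAP2 change was −0.049. The other 2 ERAP2 probe sets lay under the highest background in all 6 arrays, at 0.038 and 0.049. ERAP1 and ERAP2 are neighbours on chromosome 5 whose annotated spans overlap.

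No single array carried all 10 genes up or down. Control replicate 2 was the highest array for 4 of them (TAP2, TAPBP, PSMB8 and PSMB10) and the lowest for B2M and ERAP2. BATF3 siRNA replicate 2 was the highest for NLRC5, TAP1 and ERAP2. The median deviation of the 10 genes from the control mean was 0.041, 0.055 and −0.044 in BATF3 siRNA replicates 1, 2 and 3, and −0.088, 0.12 and −0.017 in the control replicates. By this median the control arrays lay on both sides of the BATF3 siRNA arrays. By the mean deviation BATF3 siRNA replicate 2 was the highest array, at 0.088 against 0.069 in control replicate 2.

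**Figure D4:**
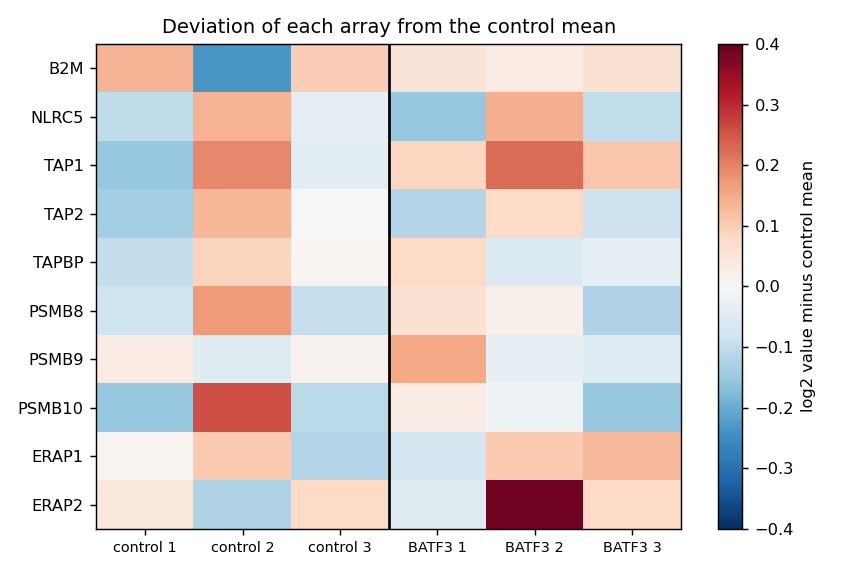
Each cell is the log2 value of a gene (rows) on an array (columns) minus the mean of the 3 control arrays, from blue (lower) to red (higher). In the column of control replicate 2 B2M is lower and TAP1 and PSMB10 are higher than in the other control arrays, and the BATF3 siRNA columns hold both colours.

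The rest of the class I pathway was read through 7 lists of 60 genes, 57 of which were measured. None of the 57 passed in limma, against 0.0164% of all genes, and 2 (MR1 and RFXAP) had an unadjusted p under 0.05, against 7.15% of all genes. Of the 57 genes 36 had positive and 21 negative changes, with a median of 0.023. The groups did not overlap for 8 of them with BATF3 siRNA higher, against 6.36% of all genes, and for 1 with BATF3 siRNA lower, against 5.78%.

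Class I heavy chains and their relatives had 3 positive and 5 negative changes among 8 measured genes, with a median of −0.015. MR1, which shows vitamin B metabolites to MAIT cells, read 8.28, 8.42 and 8.54 after BATF3 siRNA and 8.04, 8.14 and 8.17 after control siRNA. Its groups did not overlap, at a change of 0.30 (SE 0.098; limma adjusted p = 0.579), and its 6.0 probe sets ran from −0.12 to 0.30, with 4 positive. FCGRT, the heavy chain of the neonatal Fc receptor and a partner of B2M, was at −0.21 (SE 0.13; limma adjusted p = 0.816). It read 7.28, 6.86 and 7.33 after BATF3 siRNA and 7.30, 7.47 and 7.31 after control siRNA. These values exceeded the highest background in 5 arrays, and 2 of the 7 FCGRT probe sets exceeded it in every array. The classical and nonclassical chains HLA-B (−0.046), HLA-C (−0.028), HLA-E (−0.065) and HLA-F (−0.0021) were named after their values were seen, and their probes may read each other's transcripts.

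Among the other proteasome genes 0 members were called in either direction in any of 3 lists, against 0.0164% of all genes. The 7 beta subunits of the constitutive proteasome, PSMB5 to PSMB7 among them, had a median of −0.00014, and after PSMB5 the smallest p was that of PSMB4 at −0.040. The 7 alpha subunits, which form the outer rings of the core, had 6 positive changes and a median of 0.072. PSMA4 read 11.97, 12.18 and 12.11 after BATF3 siRNA and 11.95, 11.87 and 11.91 after control siRNA, a change of 0.18 (SE 0.091; limma adjusted p = 0.764), and PSMA2 was at 0.14. The groups did not overlap for these 2 of the 7, with BATF3 siRNA higher, against 6.36% of all genes, and the 3 PSMA4 probe sets ran from 0.14 to 0.18. The 10 activator and assembly genes had a median of 0.041, with the chaperones PSMG2 at 0.13 and PSMG3 at −0.13.

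Chaperones of the endoplasmic reticulum had a median of 0.0070 over 8 genes. CALR, which encodes calreticulin of the loading complex, was at −0.12 (SE 0.096; limma adjusted p = 0.851) and HSPA5, the general chaperone BiP, at 0.091. The other peptidases had a median of 0.051 over 6 measured genes, with the aminopeptidase LAP3 at 0.15 (SE 0.083; adjusted p = 0.798) and the endopeptidase NRDC at 0.083. LNPEP was not analysed here.

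Transcription regulators of class I promoters had 7 positive and 4 negative changes among 11 measured genes, with a median of 0.050. RFXAP, a subunit of the RFX complex that joins NLRC5 at these promoters, read 7.76, 7.76 and 7.89 after BATF3 siRNA and 7.28, 7.65 and 7.59 after control siRNA. Its groups did not overlap, at a change of 0.30 (SE 0.11; limma adjusted p = 0.644), and its 1 probe set exceeded the highest background in 5 arrays. The other RFX subunits RFX5 and RFXANK, named after their values were seen, were at 0.023 and −0.064. IRF1, which binds interferon response elements, was at 0.15 (SE 0.088; adjusted p = 0.807).

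**Figure D5:**
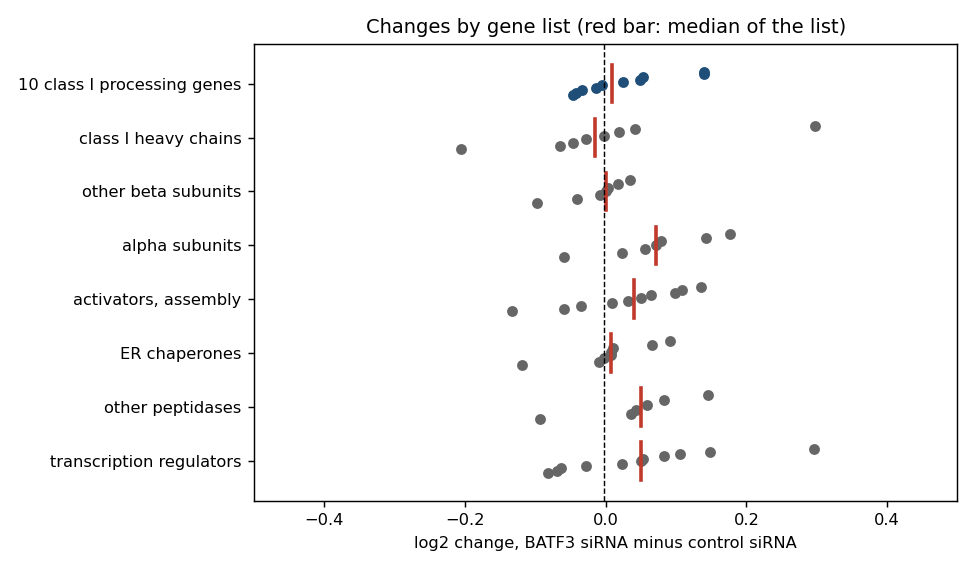
Log2 change, BATF3 siRNA minus control siRNA (horizontal axis), of each measured gene (points) in the 10 class I processing genes (blue) and the 7 pathway lists (grey); red bars are list medians and the dashed line is the median of all genes, −0.0027. List medians lie between −0.015 and 0.072, and the points farthest right are MR1 and RFXAP at 0.30.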

How the data were processed

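Total RNA of L428 cells was hybridised as biotin-labelled cRNA to Affymetrix PrimeView arrays, per the labels' protocols. The deposited table holds log2 values, 1 per probe set and array, with base 2 read from their range rather than stated. For software, the submitters' processing notes name affy, without saying how background, normalization and summarization were done. Scaling to a common distribution would hide a shift of most transcripts in 1 direction.

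The values were used as deposited. Of 49495 probe sets 102 were controls, 45278 had 1 gene, 1333 several and 2782 none. Gene symbols are those of the platform annotation. The Entrez identifiers of 45208 single-gene probe sets were found in a RefSeq table (GRCh38.p14), which changed 0 symbols. Each gene was read from its brightest probe set, by the mean over 6 arrays. BATF3 siRNA was compared with control siRNA in limma 3.58.1 under R 4.3.3 (lmFit, eBayes, two-sided, no covariate) across all 18244 genes, and again across all 49393 probe sets, with Benjamini-Hochberg adjustment. Background probe sets on the array gave the level of signal without a target. Levels of different genes were not ranked, since probes differ in brightness.

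The members and lists were chosen with earlier results of these data known. All members were named, and from each pathway list the 2 genes with the smallest p, with PSMB5, PSMB6 and PSMB7 throughout. On simulated data the fit was tested with 200 of 18244 genes changed. At log2 changes of 2, 1 and 0.5 it recovered 61 of 62, 75 of 82 and 29 of 56, with 3 false among 168 calls. The simulated noise was independent between genes, no array was set apart, and far more genes were called than the 3 in the data. Recovery in the data may therefore be lower, and changes under 0.5 were not simulated. Alternatives covered normalization, dim genes left out, other probe sets per gene, array weights, the prior, a replicate block, an array background block, the threshold and leaving out each array.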

Additional observations from a re-analysis of the deposited data

How the results depend on the processing

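The number of arrays and the background limit these results: 9 of 38 probe sets stayed below the brightest background probe set on all 6 arrays. The count of called members was 0 of 10 genes in limma under all 17 alternatives (smallest adjusted p = 0.266, with array weights; 0 or 1 gene at an unadjusted p under 0.05), and 0 of 38 probe sets under all 15 (smallest 0.127; 0 to 3 at an unadjusted p under 0.05). The count of 1 gene came with array weights, with the most variable probe set and without control siRNA replicate 2. In these fits 3312, 1250 and 1440 of all 18244 genes did so, in that order. The 3 probe sets came with array weights, where the share over all probe sets (7.16% in the main fit) was not counted. The members' median change ran from −0.015 to 0.061. Each value differed from the main fit's 0.0092 by less than 0.076, the SD within groups of the members' median per array. Of 160 values of single members over 16 fits, 128 kept their sign and 32 did not, and 0 were called.

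Over all genes, 9 were called with the filter on dim genes and 5 with the most variable probe set. Array weights gave 25, and an intensity trend with robust prior gave 12. Leaving out 1 array gave 0 to 2. The array background block, also among the alternatives counted above, leaves only BATF3 siRNA replicate 1 against the 3 controls, so its calls are not given. BATF3 was at −1.10 in that fit. When 1 array was left out it was between −1.25 and −1.14 (limma adjusted p from 0.0176 to 0.0664).

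Signs turned as follows, and the cause was not tested. With median centring TAPBP was at 0.016 and PSMB8 at 0.0078. With the most variable probe set TAP2 was at 0.14, PSMB8 at 0.34 and PSMB9 at −0.14. Each of these probe sets lay under the highest background on all 6 arrays. With the mean of probe sets TAP2, PSMB8 and PSMB9 were at 0.035, 0.12 and −0.042. With array weights B2M was at −0.032, NLRC5 at 0.017, PSMB8 at 0.036, PSMB9 at −0.018 and PSMB10 at 0.019. The array background block gives BATF3 siRNA replicate 1 minus the control mean, a difference that rests on a single BATF3 siRNA array. There TAPBP was at 0.079, PSMB8 at 0.059, PSMB10 at 0.031, ERAP1 at −0.075 and ERAP2 at −0.049. When 1 array was left out B2M ran from −0.069 to 0.12, NLRC5 from −0.12 to 0.035, TAP2 from −0.11 to 0.024, TAPBP from −0.054 to 0.039, PSMB8 from −0.061 to 0.072, PSMB9 from −0.042 to 0.062, PSMB10 from −0.12 to 0.055 and ERAP1 from −0.0055 to 0.12. TAP1 (0.065 to 0.24) and ERAP2 (0.015 to 0.23) kept their sign there.

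The replicate numbers were not shown to pair the arrays: deviations of same-numbered arrays correlated at 0.029, 0.15 and −0.025 over genes. With the replicate block 3 genes were called and 0 of the 10 members (smallest adjusted p = 0.830), and BATF3 was at −1.20 (adjusted p = 0.0137).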
